A study of Mus musculus with 4 samples.

Results

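The cells described here are liver macrophages gated on Trem2, Spp1 and Gpnmb, the combination named lipid-associated macrophages. A cell was counted when it held at least 3 unique molecular identifiers (UMIs, counted RNA molecules) of C1qa, C1qb and C1qc together and at most 1 of the Kupffer cell genes Clec4f, Vsig4, Cd5l and Timd4. It also had to hold none of Cd79a, Cd3e or Stab2, which mark B cells, T cells and sinusoidal endothelium, and at least 3 UMIs of Spp1, Gpnmb and Trem2 together. The gate took 411 of 25161 kept cells, with 140 and 36 cells in the 2 Ex libraries and 126 and 109 cells in the 2 Sed libraries. All libraries came from livers of male mice of 8 weeks bearing MC38 tumours, a mouse colon carcinoma line, taken 3 weeks after tumour injection in a model of liver metastasis under surgical stress. The Ex mice (PEx) had exercised before surgery and the Sed mice were sedentary. Hepatocytes were depleted by low-speed centrifugation and immune cells enriched on CD45 beads before 10x 3' sequencing. The labels do not say that the libraries came from separate mice, so p-values measure only the spread between libraries, and an exact permutation test of 2 against 2 libraries cannot go below p = 0.333.

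Lipid-associated macrophages are monocyte-derived or tissue macrophages that accumulate around lipid-laden or dying cells in obese fat, fatty liver and tumours. Trem2 is a surface receptor for lipids and lipoproteins that signals through the adaptor Tyrobp. Spp1 encodes osteopontin, a secreted matrix protein that binds integrins and CD44, and Gpnmb encodes a transmembrane glycoprotein of late endosomes and lysosomes. Cells of this kind are known for lysosomal proteases, apolipoprotein E and lipid-binding proteins.

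The gate rested mostly on Trem2. A Trem2 UMI was found in 92.0% of the 411 cells, a Spp1 UMI in 48.9% and a Gpnmb UMI in 27.5%, and 57 cells (13.9%) held all 3. Trem2 alone, with neither of the others, was found in 162 cells, so the label Spp1 Gpnmb covers only part of them. Cells with Trem2 alone made up 52.9% and 58.3% of the cells in the Ex libraries, against 20.6% and 37.6% in the Sed libraries. Just inside the threshold lay 87 cells with a sum of 3 UMIs, and just outside it 164 cells with a sum of 2. A further 218 cells passed the Spp1, Gpnmb and Trem2 threshold but held 2 or more UMIs of the Kupffer genes and were left out, 15 and 0 in Ex and 32 and 171 in Sed.

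The cells were chosen by their own UMIs of these genes, so the levels of the genes are given as a description. Levels are in CPM, the UMIs of a gene out of each 1000000 UMIs summed over the gated cells of a library. Spp1 (chromosome 5, 104435118 to 104441050, GRCm38) stood at 250 and 317 CPM in the Ex libraries, against 2720 and 1523 CPM in the Sed libraries. Gpnmb (chromosome 6, 49036546 to 49070929) stood at 101 and 41.5 CPM in Ex, against 193 and 187 CPM in Sed. Trem2 (chromosome 17, 48346401 to 48354147) stood at 450 and 309 CPM in Ex, against 507 and 492 CPM in Sed. For each of the 3 genes both Ex libraries lay below both Sed libraries, as they did for 23.2% of genes tested outside the gate. The distance was widest for Spp1. A Spp1 UMI was found in 32.9% and 33.3% of the Ex cells, against 69.8% and 50.5% of the Sed cells. In B cells, which should lack the gene, the shares were 0.392% and 0.0808% in Ex and 0.935% and 0.904% in Sed. The complement gene C1qa stood at 3849 and 3062 CPM in Ex, against 4815 and 4149 CPM in Sed.

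**Figure D1:**
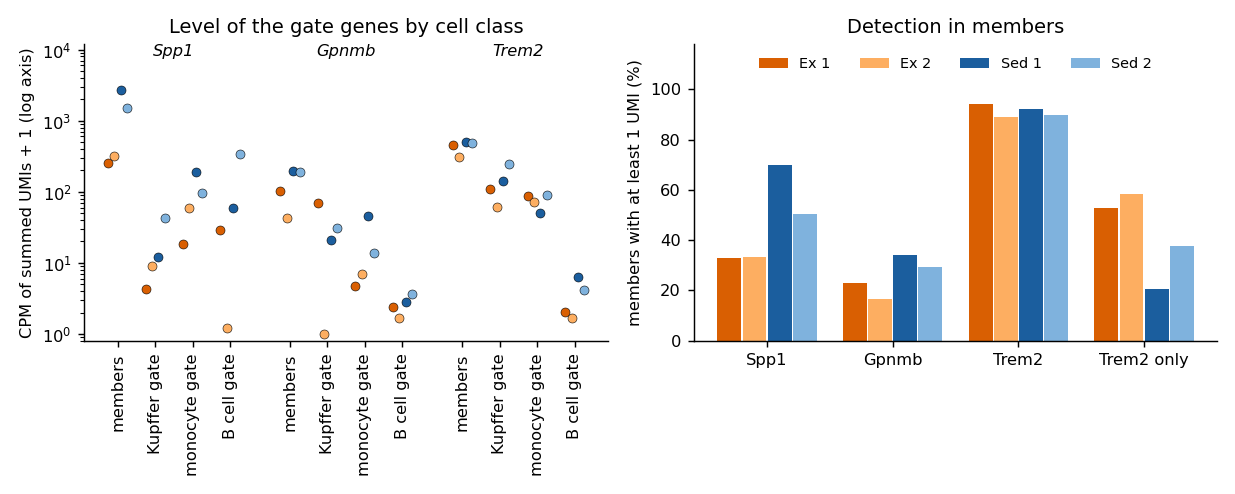
Left, CPM (plus 1, log axis) of Spp1, Gpnmb and Trem2 in the gated cells, in the Kupffer, monocyte and B cell gates, with 1 point per library. Right, the percentage of gated cells in each library in which each gene was detected, and in which Trem2 alone was. Spp1 detection was 32.9% and 33.3% in Ex and 69.8% and 50.5% in Sed, while Trem2 was detected in 88.9% to 94.3% of the cells of every library.

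Spp1 was concentrated in few cells. Of 5390 Spp1 UMIs, the 41 cells with the most, taken over all libraries, held 72.9%, and the highest cell held 636. Cells with 10 or more Spp1 UMIs numbered 6 and 4 in Ex and 56 and 30 in Sed. Across the 411 cells, which share libraries and depth, Spp1 rank-correlated with Arg1 (arginase 1, which consumes arginine) at a Spearman rho of 0.54, with Lgals3 (galectin 3) at 0.40 and with Fabp5 (a fatty acid chaperone) at 0.36. The same measure against H2-Aa, a chain of MHC class II, was -0.43. These values pool libraries whose levels differ. Within libraries the rho of Spp1 with Arg1 was 0.21 and 0.16 in Ex and 0.46 and 0.70 in Sed, and with Lgals3 0.11 and 0.16 in Ex and 0.22 and 0.41 in Sed. With Fabp5 it was 0.062 and 0.31 in Ex and 0.36 and 0.37 in Sed. With H2-Aa it was -0.13 and -0.13 in Ex and -0.20 and -0.53 in Sed, so the pooled values were stronger than those within either Ex library. Trem2 ranked with another gene: its rho was 0.45 with Apoe, an apolipoprotein that binds Trem2, and -0.11 with Spp1. The Trem2 and Apoe value was 0.33 and 0.61 within the Ex libraries and 0.41 and 0.59 within the Sed libraries. The monocyte gene Ly6c2 ran opposite to Apoe, at -0.51 over all gated cells. Within libraries it was -0.46 and -0.19 in Ex and -0.35 and -0.72 in Sed. These correlations are descriptions of cells and carry no test.

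Other macrophage genes matched the label in part. Cd68, a lysosomal glycoprotein of phagocytes, was detected in 90.7% and 100% of the Ex cells and 99.2% and 88.1% of the Sed cells. Csf1r, the receptor for the macrophage growth factor CSF1, was detected in 95% and 97.2% in Ex and 76.2% and 91.7% in Sed. Apoe was detected in at least 98.4% in each library. The tetraspanin Cd9, often listed for lipid-associated macrophages, was found in 18.6% and 47.2% in Ex and 42.1% and 49.5% in Sed. Lipoprotein lipase, Lpl, was found in 25.7% and 22.2% in Ex and 23.0% and 32.1% in Sed. Monocyte genes were also common. Ly6c2 was found in 51.4% and 66.7% in Ex and 63.5% and 42.2% in Sed. Ccr2 was found in 75.7% and 94.4% in Ex and 35.7% and 61.5% in Sed. The 20 monocyte markers summed to 20529 and 19854 CPM in Ex and 14990 and 16668 CPM in Sed. In C1q cells without Spp1, Gpnmb and Trem2 they summed to 17642 and 17014 CPM in Ex and 18050 and 14558 CPM in Sed. The cells were deep, with a median of 8204 and 9538 UMIs in Ex and 9530 and 8544 UMIs in Sed. Their summed UMIs were 1221345 and 385367 in Ex and 1256748 and 1014631 in Sed, so the second Ex library carries the least information. Of 28525 barcodes, 83 sequences occurred in more than 1 library, 2 of them among these cells.

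The abundance of the cells was compared over libraries. They made up 2.31% (95% exact binomial interval 1.95% to 2.72%) and 0.849% (0.595% to 1.17%) of kept cells in the Ex libraries, against 1.74% (1.45% to 2.06%) and 1.43% (1.18% to 1.73%) in the Sed libraries. The means were 1.58% ± 1.03 in Ex and 1.58% ± 0.213 in Sed (SD, n = 2 each), and the groups overlapped (exact permutation test, two-sided, p = 1.00). Among C1q-positive cells under the Kupffer limit, which number 698 and 209 in Ex and 270 and 414 in Sed, the gated cells were 20.1% and 17.2% in Ex, against 46.7% and 26.3% in Sed. Here both Ex libraries lay below both Sed libraries, with means of 18.6% ± 2.0 in Ex and 36.5% ± 14.4 in Sed (SD, n = 2 each; exact permutation test, two-sided, p = 0.333, the smallest possible). That share used the gate genes themselves. Its denominator varied too: C1q-positive cells under the Kupffer limit were 8.23% ± 4.67 of kept cells in Ex and 4.58% ± 1.22 in Sed, and the libraries of the groups overlapped. When each cell was thinned to 2000 UMIs and shallower cells were left out, the gate took 22 and 4 cells in Ex and 74 and 45 cells in Sed, or 0.462% and 0.112% of cells in Ex and 1.38% and 0.856% in Sed. The thinned gate still asked for 3 UMIs of Spp1, Gpnmb and Trem2. Its share therefore also rests on the levels of these genes, which were lower in Ex, and is no separate test of abundance. Intervals cover counting error only.

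**Figure D2:**
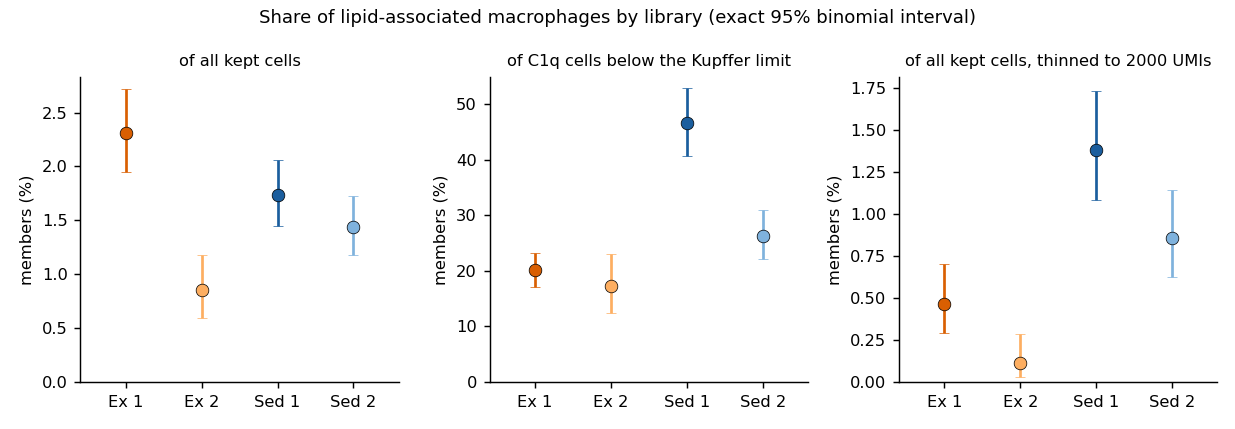
Percentage of gated cells by library, with exact 95% binomial intervals, for Ex (left in each panel) and Sed (right), of all kept cells, of C1q-positive cells under the Kupffer limit, and of kept cells thinned to 2000 UMIs. The groups overlap in the first panel (2.31% and 0.849% against 1.74% and 1.43%) and not in the others. The thinned share also rests on the levels of the gate genes, which were lower in Ex.

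Within the gated cells, genes outside the gate were compared between Ex and Sed with edgeR's quasi-likelihood test on UMI sums per library, with p-values adjusted over all genes tested. Of 7693 genes, 7 rose (0.091%) and 9 fell (0.117%) in Ex at an adjusted p under 0.05, together 0.208% of those tested. The genes that rose included interferon-inducible and myeloid genes, and those that fell included granule genes of neutrophils, the lectin Chil3 and the fatty acid chaperone Fabp5. At an unadjusted p under 0.05 there were 647 genes. DESeq2 called 34 (0.442%), of which 15 were among the 16. Leaving out single libraries gave 21 and 35 genes without the first and second Ex library and 80 and 349 without the first and second Sed library, 1 library being then assumed to vary like the pair. With each cell thinned to 2000 UMIs before gating, 990 genes could be tested and edgeR called 0 (71 at an unadjusted p under 0.05).

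Ly6i, a GPI-anchored Ly6 family protein (chromosome 15, 74979534 to 74983430), stood at 115 and 262 CPM in Ex, against 15.9 and 22.7 CPM in Sed, a log2 change of 3.27 ± 0.43 (SE; edgeR adjusted p = 0.0257). Gbp2, an interferon-gamma-inducible GTPase, stood at 331 and 475 CPM in Ex and 87.5 and 143 CPM in Sed (1.85 ± 0.27, edgeR adjusted p = 0.0186). Cxcl10, the ligand of CXCR3 on activated lymphocytes, stood at 581 and 781 CPM in Ex and 224 and 308 CPM in Sed (1.40 ± 0.22, edgeR adjusted p = 0.0263). These genes were picked only from those whose Ex and Sed libraries did not overlap. Of all genes tested, 17.5% were higher in both Ex libraries. Fam26f, a calcium homeostasis modulator family gene induced by interferon-gamma, stood at 158 and 156 CPM in Ex and 50.9 and 56.2 CPM in Sed (1.60 ± 0.24, edgeR adjusted p = 0.0186). Lyz2, the myeloid lysozyme, stood at 12921 and 11703 CPM in Ex and 5317 and 7129 CPM in Sed (1.04 ± 0.15, edgeR adjusted p = 0.0186). The remaining pair of higher genes were the predicted genes Gm34084 and Gm42418, named after their values were seen. Fam26f and Lyz2 no longer passed when the first Ex library was left out, and Cxcl10 when the second was, while Ly6i and Gbp2 passed in 4 of 4 such fits. With called doublets removed, Ly6i, Gbp2 and Cxcl10 no longer passed (edgeR adjusted p = 0.0628, 0.0681 and 0.0853).

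Fabp5 (chromosome 3, 10012548 to 10016607) fell to 287 and 426 CPM in Ex, against 1239 and 961 CPM in Sed (log2 change -1.60 ± 0.23, edgeR adjusted p = 0.0186; 0.0955 without the first Ex library). In B cells Fabp5 stood at 8.12 and 12.4 CPM in Ex and 17.3 and 26.5 CPM in Sed. The libraries lay further apart in cells with Spp1. In gated cells with a Spp1 UMI, Fabp5 was 366 and 669 CPM in Ex and 1665 and 1635 CPM in Sed, and in those without one it was 251 and 306 CPM in Ex and 335 and 304 CPM in Sed. This split was chosen after seeing the data and rests on Spp1, a gene of the gate that differed in level between Ex and Sed, so the values are given with no test. Arg1 did not pass over all gated cells, at 169 and 314 CPM in Ex and 1035 and 694 CPM in Sed (-1.84 ± 0.33, edgeR adjusted p = 0.13). Among cells with a Spp1 UMI (46 and 12 in Ex, 88 and 55 in Sed) it was 245 and 323 CPM in Ex and 1338 and 1394 CPM in Sed. Among those without one it was 133 and 310 CPM in Ex and 395 and 11.7 CPM in Sed.

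Chil3 (Ym1, a chitinase-like lectin of myeloid cells) stood at 264 and 397 CPM in Ex, against 2561 and 1754 CPM in Sed (-2.68 ± 0.26, edgeR adjusted p = 0.0073). Retnlg, a resistin-like gene of neutrophils, stood at 20.5 and 2.59 CPM in Ex and 314 and 315 CPM in Sed (-4.32 ± 0.42, edgeR adjusted p = 0.0073). Lcn2, a neutrophil siderophore-binding protein, stood at 26.2 and 33.7 CPM in Ex and 375 and 181 CPM in Sed (-3.24 ± 0.42, edgeR adjusted p = 0.0252). The values of these genes were lower in Ex among B cells too, where Chil3 stood at 37.9 and 62.0 CPM in Ex and 678 and 349 CPM in Sed, and Retnlg at 32.8 and 37.6 CPM in Ex and 1570 and 552 CPM in Sed. Ear2, Pglyrp1, Wfdc21 and the predicted genes Gm5483 and Gm19951, the last pair named after their values were seen, also fell. Ear2, an eosinophil-associated ribonuclease also found in monocytes, stood at 4.09 and 0 CPM in Ex and 56.5 and 56.2 CPM in Sed (-4.10 ± 0.50, edgeR adjusted p = 0.0073). That is 5 and 0 UMIs in Ex, so the fitted value depends on the prior count, and it was -8.64 without the first Ex library and -3.72 without the second. The fitted values of Retnlg and Pglyrp1 also moved without the first Ex library, to -6.81 and -8.16. Without the first Ex library Lcn2, Pglyrp1 and Wfdc21 no longer passed, and without the second Lcn2 did not. Wfdc21 did not pass with called doublets removed (edgeR adjusted p = 0.142). The 14 neutrophil markers together made up 695 and 503 CPM of the gated cells in Ex and 7679 and 3584 CPM in Sed, none was at 0 in all libraries, and in B cells they made up 1027 and 2722 CPM in Ex and 13136 and 5291 CPM in Sed. The part of free neutrophil RNA in these falls was not tested. Cells without S100a8, S100a9 or Retnlg UMIs numbered 89 and 26 in Ex and 16 and 55 in Sed. Neutrophil genes that were themselves lower in Ex made that filter, so values in these cells are given with no test. The log2 change there was -2.54 for Fabp5, -1.71 for Chil3, -3.68 for Ear2, 3.82 for Ly6i, 1.99 for Gbp2, 1.25 for Lyz2, 1.06 for Cxcl10 and 1.01 for Fam26f.

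**Figure D3:**
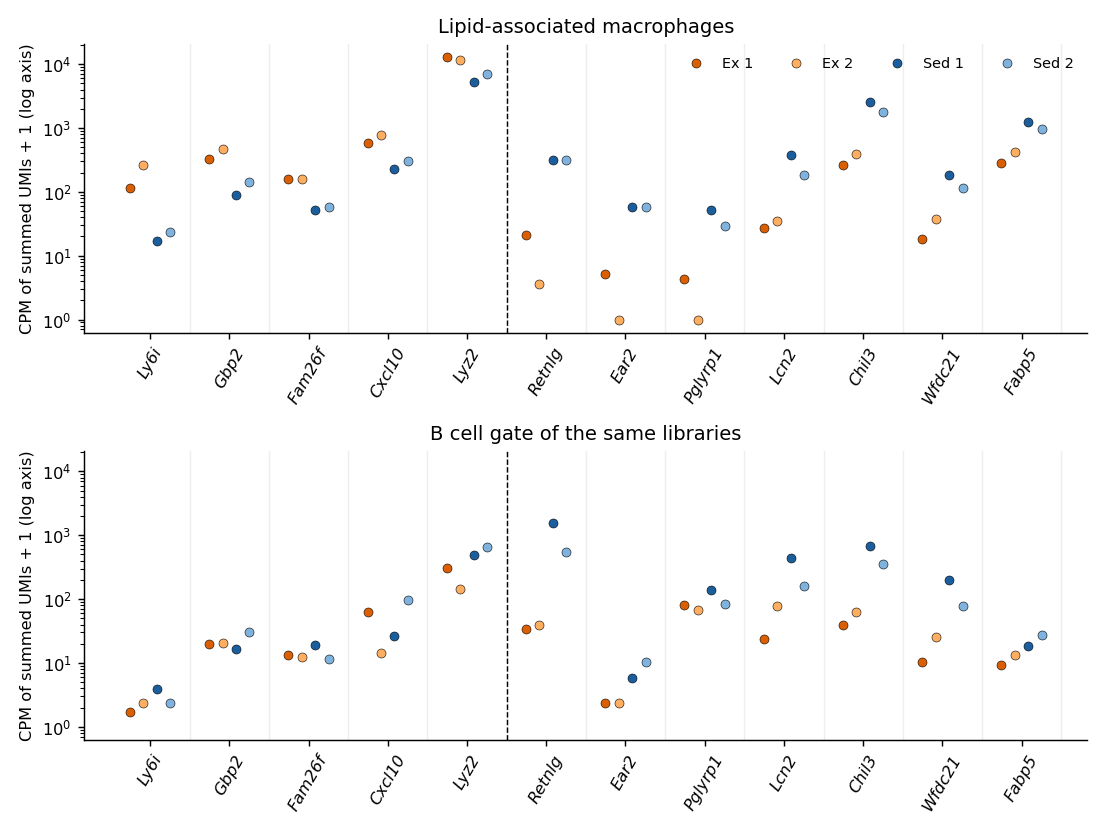
CPM plus 1 (log axis) of 12 genes that differed between Ex and Sed in the gated cells, by library, in the gated cells (top) and in B cells (bottom), with Ex left of Sed for each gene. A dashed line parts genes higher in Ex from genes lower in Ex, and Retnlg, Lcn2 and Chil3 are lower in Ex in both cell types.

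The pathway lists were read by their counts. Of 34 tested genes of the lipid-associated program, 0 rose and 1 fell (Fabp5) by edgeR, and 16 had an unadjusted p under 0.05. Their median log2 change was -0.52, against 0.01 over all genes tested. Among all genes tested, 0.091% rose, 0.117% fell and 647 of 7693 had an unadjusted p under 0.05. DESeq2 called 2 of the 34. Lgals3 stood at 1450 and 1949 CPM in Ex and 3871 and 2634 CPM in Sed (-0.90 ± 0.23, edgeR adjusted p = 0.258). Among 42 lysosomal genes none passed by edgeR (7 at an unadjusted p under 0.05, 1 by DESeq2), with a median of -0.11. Cathepsin L, Ctsl, a lysosomal cysteine protease, stood at 386 and 514 CPM in Ex and 1610 and 911 CPM in Sed (-1.46 ± 0.30, edgeR adjusted p = 0.175). The 12 signalling partners of Trem2 had a median of 0.05 with none called by edgeR (1 at an unadjusted p under 0.05, 0 by DESeq2), and Tyrobp stood at 2362 and 2151 CPM in Ex and 2388 and 2479 CPM in Sed.

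Of 44 interferon-stimulated genes 2 rose (Gbp2 and Cxcl10) and 0 fell, and their median of 0.09 lay near that of all genes. Among all genes tested, 0.091% rose and 0.117% fell. Cxcl9, another CXCR3 ligand, stood at 679 and 2299 CPM in Ex and 57.3 and 293 CPM in Sed (3.15 ± 1.30, edgeR adjusted p = 0.691). Both Ex libraries lay above both Sed libraries, as they did for 17.5% of all genes tested, while 40.7% did not overlap in either direction and 23.2% were lower in both Ex libraries. The 12 tested MHC class II and costimulatory genes had a median of 1.38 with none called by edgeR (3 at an unadjusted p under 0.05, 0 by DESeq2). H2-Aa stood at 4198 and 4858 CPM in Ex and 386 and 1818 CPM in Sed (2.11 ± 0.96, edgeR adjusted p = 0.724), so the Sed libraries lay far apart from each other. The class II list was also higher in both Ex libraries in other cells. It summed to 19804 and 16026 CPM in Ex and 4432 and 9722 CPM in Sed in the Kupffer gate. In the monocyte gate it was 6653 and 5721 CPM in Ex and 1482 and 1976 CPM in Sed. In B cells it was 23087 and 21491 CPM in Ex and 19807 and 17374 CPM in Sed. Among gated cells with a Spp1 UMI, H2-Aa stood at 3780 and 4125 CPM in Ex and 276 and 501 CPM in Sed, and without one at 4392 and 5218 CPM in Ex and 618 and 3102 CPM in Sed, again with no test since Spp1 made the split. The 11 dendritic cell markers made up 131 and 77.8 CPM of the gated cells in Ex and 35.0 and 60.1 CPM in Sed, and 1 was at 0 in every library. Their part in the class II levels was not tested. Ccr2, the receptor that draws monocytes into tissue, stood at 702 and 708 CPM in Ex and 172 and 414 CPM in Sed (1.33 ± 0.36, edgeR adjusted p = 0.361).

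Promoters of Cxcl10 and Gbp2 are shown because both genes rose in Ex and both hold an interferon-response-type motif. Each sequence runs from 250 bases before to 50 after the RefSeq gene start, 5' to 3' on the gene's strand, in GRCm38.p6. Capitals mark an interferon-response-type repeat, GAAA and again GAAA with NN between them, and the AP-1-type motif TGANTCA, each on either strand. The Cxcl10 window is chr5:92348840-92349139 on the minus strand and the Gbp2 window is chr3:142620413-142620712 on the plus strand.
Cxcl10: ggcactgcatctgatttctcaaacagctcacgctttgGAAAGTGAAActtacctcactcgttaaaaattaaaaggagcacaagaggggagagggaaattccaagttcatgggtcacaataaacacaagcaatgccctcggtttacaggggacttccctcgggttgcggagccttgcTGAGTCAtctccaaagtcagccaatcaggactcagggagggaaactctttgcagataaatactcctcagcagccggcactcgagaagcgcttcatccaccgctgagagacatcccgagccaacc
Gbp2: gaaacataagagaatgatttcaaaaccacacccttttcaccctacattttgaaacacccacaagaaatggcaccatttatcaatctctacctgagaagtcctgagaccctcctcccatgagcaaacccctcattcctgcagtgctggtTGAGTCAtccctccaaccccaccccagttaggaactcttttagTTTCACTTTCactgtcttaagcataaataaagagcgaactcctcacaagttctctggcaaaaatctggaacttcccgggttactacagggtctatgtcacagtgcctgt
In Cxcl10 the first motif begins at base 38 of the window and the second at base 177, and in Gbp2 they begin at bases 192 and 149. Of 27025 genes with a promoter entry, 3.99% hold the repeat and 8.97% hold TGANTCA in this window. A match is a description of the letters and not of binding.

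The gated cells were then set against 722 C1q-positive cells of the same gate with no UMI of Spp1, Gpnmb or Trem2, 350 and 94 in Ex and 91 and 187 in Sed, with library as a block. The split used only these 3 genes, which were left out of the test, but it was made on the same cells. Gated cells were also deeper, since the other cells had medians of 4289 and 7246 UMIs in Ex and 2150 and 1911 UMIs in Sed. Most other cells in Sed held fewer than 3 UMIs of the macrophage genes Adgre1, Csf1r and Cd68 together. Most other cells in Ex, and most gated cells, held 3 or more. Csf1r was detected in 63.4% and 85.1% of the other cells in Ex and 44.0% and 44.9% in Sed. The class difference is therefore not only one between kinds of macrophage, least of all in Sed. Of 7714 genes, 120 were higher (1.56%) and 170 lower (2.2%) in the gated cells, together 3.76% of those tested, and DESeq2 called 140 (1.81%), of which 119 were shared. Without library as a block edgeR called 0 (574 at an unadjusted p under 0.05), and against the cells with 1 or 2 UMIs of the 3 genes, a class chosen after seeing the data, it called 48. Without the second Sed library it called 78, of which 73 were among the 290. Genes of lysosomal breakdown, lipid handling, chemokines and metal binding were among those higher, and genes of neutrophils, endothelium, T cells and dendritic cells were among those lower. Lipid genes did not rise as a group. Of 22 tested genes of fatty acid uptake, storage and oxidation, 1 was higher (Plin2) and 1 lower (Fabp4). Their median log2 difference was 0.02, with 11 positive and 11 negative.

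Of 34 lipid-associated program genes, 16 were higher, 1 was lower and the median log2 difference was 0.78, against -0.01 over all genes. Among all genes tested, 1.56% were higher and 2.2% lower. Over the list, gated cells summed to 34116.5 and 25999 CPM in Ex and 40582.5 and 43043 CPM in Sed. The Kupffer gate took C1q-positive cells with at least 3 UMIs of the Kupffer genes. Its cells summed to 39588 and 30266 CPM in Ex and 26639 and 44750 CPM in Sed, with no test. Apoe stood at 18155 and 11833 CPM in gated Ex cells and 17334 and 23224 CPM in gated Sed cells. In the other C1q cells it stood at 9097 and 6959 CPM in Ex and 12608 and 11189 CPM in Sed, so it was higher in the gated cells in each library, as were 12.5% of all genes tested (0.79 ± 0.08, edgeR adjusted p = 1.39e-05). Syngr1, a synaptogyrin listed for this program, stood at 13.9 and 15.6 CPM in gated Ex cells and 35.8 and 39.4 CPM in gated Sed cells, against 0.596 and 5.68 CPM in other Ex cells and 5.73 and 4.26 CPM in other Sed cells (2.81 ± 0.42, edgeR adjusted p = 0.000377). The lipid droplet coat gene Plin2 was higher by 0.77 ± 0.12 and Lgals3 by 0.67 ± 0.14 (edgeR adjusted p = 0.000489 and 0.0289). Lgals3 kept its call in 6 of 16 alternatives, with values from 0.30 to 0.83. The single lower member was Fabp4, a fatty acid chaperone also abundant in endothelium, with 77 UMIs in gated and 305 in other cells (-2.46 ± 0.22, edgeR adjusted p = 8.74e-07). Against the cells with 1 or 2 UMIs of the gate genes its direction turned (0.79). Fabp5 and Arg1 had larger fitted differences that did not pass (1.99 ± 0.49 and 3.56 ± 0.53, edgeR adjusted p = 0.208 and 0.0701). Arg1 stood at 169 and 314 CPM in gated Ex cells and 1035 and 694 CPM in gated Sed cells, against 24.4 and 45.4 CPM in other Ex cells and 14.3 and 49.7 CPM in other Sed cells, so it was higher in each library.

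Of 41 lysosomal genes 15 were higher and 0 lower, with a median of 0.41, against 1.56% higher and 2.2% lower over all genes tested. The level was not particular to the gated cells. The lysosome list summed to 22867 and 20339 CPM in gated Ex cells and 25953 and 25450 CPM in gated Sed cells. In the Kupffer gate it summed to 26799 and 27039 CPM in Ex and 20096 and 28411 CPM in Sed. Ctsl stood at 386 and 514 CPM in gated Ex cells and 1610 and 911 CPM in gated Sed cells, against 157 and 162 CPM in other Ex cells and 427 and 250 CPM in other Sed cells (1.65 ± 0.12, edgeR adjusted p = 4.41e-08). Cathepsins D and B were higher by 1.17 ± 0.16 and 0.85 ± 0.13 (Ctsd and Ctsb, edgeR adjusted p = 0.00256 for each), and the asparaginyl protease Lgmn by 0.84 ± 0.11 (edgeR adjusted p = 0.000145). Atp6v0d2, a subunit of the proton pump that acidifies lysosomes, also passed, with 74 UMIs in gated cells and 1 in the other cells. The 74 were 5 and 0 in Ex and 46 and 23 in Sed, so the first Ex library and both Sed libraries held them. Among 15 genes of cholesterol export, Abca1 (1.16 ± 0.17), Apoe and the cholesteryl ester hydrolase Nceh1 (0.85 ± 0.20) were higher and Apoc1 was lower, with a median of 0.14. That list summed to 20833 and 14610 CPM in gated Ex cells and 20384 and 26146.5 CPM in gated Sed cells. In the Kupffer gate it summed to 27868 and 18970 CPM in Ex and 19970 and 33344.5 CPM in Sed. Without the second Sed library Ctsb, Ctsd and Lgals3 no longer passed, and Lgals3 did not without the second Ex library either.

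**Figure D4:**
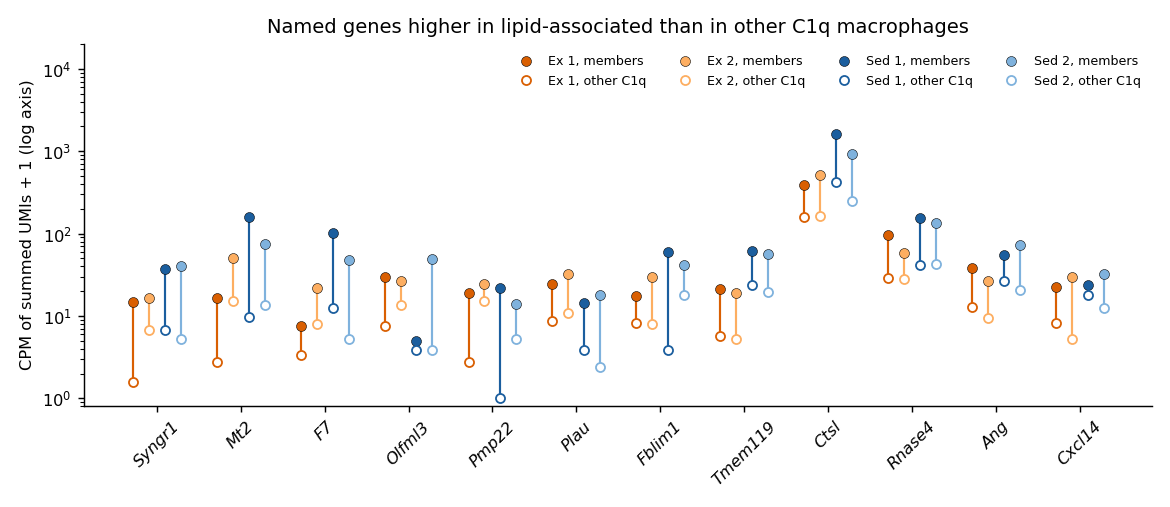
CPM of the 12 named genes with the largest rise in gated cells (filled) against other C1q cells (open), by library, with Ex left of Sed. Genes were picked only where gated cells lay above the other cells in every library pair, as 12.5% of all genes tested did. Ctsl, for example, stood at 386, 514, 1610 and 911 against 157, 162, 427 and 250 CPM.

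Of 18 chemokine genes 6 were higher and 0 lower, with a median of 0.83, against 1.56% higher and 2.2% lower over all genes tested. Ccl12, a ligand of Ccr2, stood at 546 and 343 CPM in gated Ex cells and 332 and 518 CPM in gated Sed cells, against 268 and 172 CPM in other Ex cells and 109 and 231 CPM in other Sed cells (1.13 ± 0.12, edgeR adjusted p = 1.13e-05). The metallothioneins Mt2 and Mt1, which bind zinc and copper, were higher by 2.73 ± 0.29 and 0.94 ± 0.13 (edgeR adjusted p = 7.07e-06 and 0.000331). Mt2 ranged over 15.6 and 49.3 CPM in gated Ex cells and 158 and 72.9 CPM in gated Sed cells, and from 1.79 to 14.2 CPM in the other cells. Coagulation factor VII (F7, 2.52 ± 0.35), urokinase (Plau, 1.85 ± 0.37) and the complement C5a receptor (C5ar1, 1.00 ± 0.14) were higher as well (edgeR adjusted p = 0.000212, 0.00619 and 0.000193). So were Tmem119 (1.67 ± 0.27) and Cx3cr1 (1.08 ± 0.18), known from microglia, and the ribonucleases Rnase4 (1.63 ± 0.17) and Ang (1.52 ± 0.23). Olfml3, Pmp22, Fblim1 and Cxcl14 had differences from 1.43 to 2.11. They completed the 12 largest among genes kept for naming, which averaged 10 CPM or more and were higher in every library pair. Olfml3, Pmp22 and Cxcl14 no longer passed without the second Sed library, nor did Pmp22 and Cxcl14 without the first Ex library, Pmp22 without the first Sed library and Cxcl14 without the second Ex library. None of 44 interferon-stimulated genes differed by edgeR (7 at an unadjusted p under 0.05, 0 by DESeq2), with a median of -0.10. None of the 12 Trem2 signalling partners did either (3 at an unadjusted p under 0.05, 0 by DESeq2).

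Of 14 MHC class II genes 1 was higher (the protease Ctss) and 7 lower, with a median of -0.40. Among all genes tested, 1.56% were higher and 2.2% lower. H2-Aa was lower by 0.43 on the log2 scale (-0.43 ± 0.09, edgeR adjusted p = 0.00619), with 4198 and 4858 CPM in gated Ex cells and 386 and 1818 CPM in gated Sed cells, against 5804 and 5532 CPM in other Ex cells and 496 and 2664 CPM in other Sed cells. H2-Aa did not pass without the first Ex or the second Sed library (edgeR adjusted p up to 0.0875). In the same contrast 5 of 6 dendritic cell markers, 5 of 10 endothelial, 4 of 10 T and NK cell and 6 of 13 neutrophil markers were lower. The 14 neutrophil markers summed to 695 and 503 CPM in gated Ex cells and 7679 and 3584 CPM in gated Sed cells, against 6574 and 1653 CPM in other Ex cells and 36361 and 25272 CPM in other Sed cells. Fitted values depend on the prior count where gated cells held few UMIs (0 for Timp3, 1 each for Cd8b1, Gimap5 and Clec14a). By fitted value, the 12 largest falls among genes kept for naming were Timp3, Cd8b1, Gimap5, Ccr7, Gpihbp1, Cd55, Egfl7, Jam2, Igfbp7, Clec14a, Plpp1 and Clec4g. Most of these are known from endothelium, lymphocytes or mature dendritic cells. Igfbp7, for one, had 21 UMIs in gated and 283 in other cells. The part of such other cells' RNA in the class difference was not tested. With both classes limited to cells with at least 3 UMIs of Adgre1, Csf1r and Cd68, 136 genes were called, and with both limited to cells of 2000 UMIs or more, 300 were, both chosen after seeing the data.

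**Figure D5:**
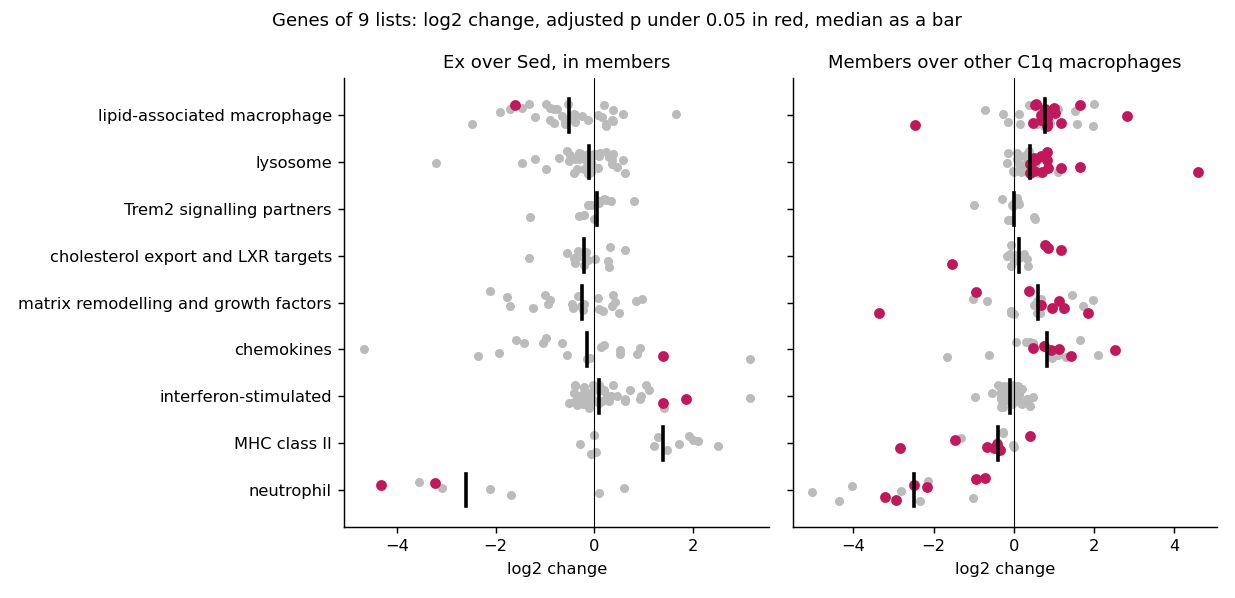
Log2 change of each tested gene in 9 gene lists (points, red where the edgeR adjusted p is under 0.05) and the list's median (bar), for Ex over Sed within the gated cells (left) and gated over other C1q cells (right). The lipid-associated list has its median at -0.52 on the left and at 0.78 on the right.

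The promoters of Ctsl and Ctsd are shown because both hold CACGTG, the core of the motif bound by the lysosomal gene regulators Tfeb and Tfe3, marked in capitals. The windows, in GRCm38.p6 and on the minus strand, are chr13:64370471-64370770 and chr7:142387778-142388077.
Ctsl: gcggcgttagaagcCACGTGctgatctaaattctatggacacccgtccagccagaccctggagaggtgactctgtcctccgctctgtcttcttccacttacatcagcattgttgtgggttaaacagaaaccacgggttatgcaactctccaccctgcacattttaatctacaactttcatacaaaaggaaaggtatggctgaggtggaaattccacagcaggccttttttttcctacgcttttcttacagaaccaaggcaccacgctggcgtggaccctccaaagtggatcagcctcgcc
Ctsd: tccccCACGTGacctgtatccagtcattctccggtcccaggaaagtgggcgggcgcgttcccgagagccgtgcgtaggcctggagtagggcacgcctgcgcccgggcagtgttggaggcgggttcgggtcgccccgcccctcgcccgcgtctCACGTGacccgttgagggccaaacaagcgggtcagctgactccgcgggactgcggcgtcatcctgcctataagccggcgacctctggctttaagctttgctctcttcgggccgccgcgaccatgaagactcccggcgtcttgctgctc
The motif reads the same on both strands and occurs in 8.09% of the 27025 genes with a promoter entry. It was in 11 of 32 lysosomal genes with an entry (34.4%), in 16 of the 100 with an entry among genes higher in the gated cells and in 10 of the 132 among those lower.

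Whether the Ex and Sed difference itself depended on the class was tested with an interaction term on the same 8 sums. Of 7714 genes 4 passed (0.0519%), Trbc2, Cd3g, Mmp9 and Hbb-bs, 441 had an unadjusted p under 0.05, and DESeq2 called 1 (0.013%). Leaving out the first or second Ex library gave 32 and 27 genes, and leaving out the first or second Sed library 3 and 33. None of the 4 is a gene of the lipid-associated list. Fabp5 and Arg1 did not pass (0.19 ± 1.18 and -1.69 ± 0.55, edgeR adjusted p = 1.00 and 0.667), and neither did Gbp2 (-0.79 ± 0.25, edgeR adjusted p = 0.471). In the other C1q cells Fabp5 stood at 69.7 and 93.7 CPM in Ex and 115 and 501 CPM in Sed, and Gbp2 at 371 and 521 CPM in Ex and 63.1 and 83.8 CPM in Sed. The chemokine Ccl8 came near the threshold (-2.64 ± 0.44, edgeR adjusted p = 0.0521), with 147 and 13 CPM in gated Ex cells and 171 and 227 CPM in gated Sed cells, against 114 and 46.9 CPM in other Ex cells and 25.8 and 36.9 CPM in other Sed cells.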

How the data were processed

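The authors deposited 1 matrix of UMI counts, genes by cell barcodes, for 4 libraries, made with Cell Ranger (7.0.0 and the builds mm10 and GRCm38, per the submitters' processing notes, and 6.1.1, per the file headers). Whether read depth was equalised between libraries is not given in the sources used here. The matrix has 51140 columns and 28525 barcodes are listed. The barcodes were taken, in order, as the first 28525 columns, and only these were used, with 31053 genes and 135480097 UMIs. Libraries were told apart by barcode suffix, 1 and 2 being taken as Sed and 3 and 4 as Ex, an assumption on which all comparisons rest. Suffix changes lay 4, 2 and 10 cells from breaks in the matrix. The breaks were sought only near each suffix change, with a score built from cells further out on its 2 sides.

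Kept cells had 200 genes or more and no more than 10% of their UMIs in mitochondrial genes. UMIs of the gated cells were summed per library and class and tested with edgeR 4.0.16 (robust quasi-likelihood F test, filterByExpr, TMM scaling, Benjamini-Hochberg over all genes tested, threshold 0.05), and DESeq2 1.42.0 served as an alternative. The 13 genes of the gate stayed in library totals and out of the tests. CPM divides a sum by its library and class total, without TMM. The SE beside an edgeR log2 change was worked back from the test. It is the absolute log2 change over the square root of the F statistic. Other alternatives were a stricter cell filter, removal of called doublets, thinning, stricter and looser gates, no count filter, a replicate block and leaving out each library. Doublets were scored with Scrublet in scanpy 1.11.5 and the highest scores removed at 0.8% per 1000 cells, which took 15 of the gated cells; they were kept in the main comparison. Named genes were the up to 12 largest changes per direction past the threshold, whose higher group averaged 10 CPM or more and whose libraries did not overlap, without predicted, ribosomal or mitochondrial genes, plus set members of the lists. The cells and the lists were chosen with earlier results of these data known. Gene positions are from GENCODE vM21 (789 of 789 matched), and promoter sequences from RefSeq, GRCm38.p6.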

Additional observations from a re-analysis of the deposited data

Results flagged for a closer look

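Genes whose Ex and Sed difference itself differed between the gated cells and the other C1q cells, by edgeR's interaction term, numbered 4, and DESeq2 called 1. Trbc2, a T cell receptor constant gene, had an interaction of 5.56 on the log2 scale (edgeR adjusted p = 0.000513). It stood at 16.4 and 51.9 CPM in gated Ex cells and 0.796 and 3.94 CPM in gated Sed cells, against 19.7 and 24.1 CPM in other Ex cells and 37.3 and 148 CPM in other Sed cells. Cd3g, a chain of the T cell receptor complex, had 9 and 8 UMIs in gated Ex cells and 0 in gated Sed cells, so its fitted interaction of 7.48 depends on the prior count (edgeR adjusted p = 0.0366). The 15 T and NK cell markers summed to 91.7 and 148 CPM in gated Ex cells and 18.3 and 99.5 CPM in gated Sed cells, with 2 of them at 0 throughout. Cells with a Cd3e UMI had been left out of both classes. Mmp9, a neutrophil and macrophage gelatinase, had an interaction of 2.77 (edgeR adjusted p = 0.0366), with 41.8 and 2.59 CPM in gated Ex cells and 34.2 and 20.7 CPM in gated Sed cells, against 22.6 and 2.84 CPM in other Ex cells and 91.8 and 119 CPM in other Sed cells. The beta-globin gene Hbb-bs had an interaction of -5.40 (edgeR adjusted p = 0.000513), with 13.1 and 2.59 CPM in gated Ex cells and 11.9 and 5.91 CPM in gated Sed cells, against 1897 and 8.52 CPM in other Ex cells and 37.3 and 19.9 CPM in other Sed cells. The value rests on the first Ex library, and without it the interaction was 0.04. The call was kept in 5 of 12 alternatives for Mmp9, 7 of 11 for Cd3g, 8 of 11 for Hbb-bs and 10 of 11 for Trbc2. The part of other cells' RNA in these 4 genes was not tested.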

How the results depend on the processing

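The number of genes that differed between Ex and Sed, 16, was 34 by DESeq2, 151 without a count filter, 27 with the stricter cell filter, 9 without called doublets, 0 with thinned cells and 5 with at least 5 UMIs of the gate genes. It was 35 in cells with and 6 in cells without Spp1, 3 in cells without neutrophil genes, subsets made on genes that themselves differed, and 21 to 349 when single libraries were left out. Because genes that differed between Ex and Sed made these subsets, their counts are no test of Ex against Sed. They are listed only to show how the number moved. The fit with the replicate number as a block gave 28, but same-numbered libraries shared only a number (correlation of deviations 0.0229 over 7693 genes). In the class counts that follow, the one for gated cells without Spp1 also rests on a split by a gate gene. The class difference, 290 genes, was 140 by DESeq2, 604 without a count filter, 77 with thinned cells, 0 with no replicate block, 136 with macrophage markers required, 48 against cells with 1 or 2 UMIs, 180 for gated cells without Spp1, and 78 to 296 without single libraries. The interaction count, 4, was 1 by DESeq2, 66 without a count filter, 13 with the stricter filter, 23 without called doublets, 1 thinned, 8 with at least 5 UMIs, 12 with a replicate block and 3 to 33 without single libraries. The difference in share, -0.00416 percentage points, was 0.468 with the stricter filter, 0.0135 without called doublets, 0.607 with at least 2 UMIs, -0.447 with at least 5 UMIs, -0.831 with thinned cells (groups not overlapping), and -0.736 to 0.727 without single libraries, so its sign is not settled.

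Single genes changed sign as follows, on the log2 scale. For Ex against Sed, Arg1 was 0.10 in cells without Spp1, Apoe 0.10 in cells with Spp1 and Tyrobp 0.012 in cells without neutrophil genes. For gated against other cells, Fabp4 was 0.79 against cells with 1 or 2 UMIs, Cd74 0.0011 for gated cells without Spp1, and Tyrobp 0.0038 without a count filter and 0.038 without Sed replicate 1. For the interaction, Gbp2 was 0.029 and Lyz2 -0.10 with thinned cells, Fabp5 was -0.028 by DESeq2, -0.31 thinned and from -1.37 (without Sed replicate 2, edgeR adjusted p = 0.0375) to 1.19 without single libraries, and Hbb-bs from -5.53 to 0.040, the last without Ex replicate 1. The causes were not tested. Over 24 genes and their alternatives for Ex against Sed, 263 of 345 values kept direction and side of the threshold, 47 lost the call and 32 gained one. Over 46 genes for the class difference, 524 of 654 did, 116 lost and 10 gained. In both counts a gene not called at first that stayed uncalled counts as kept, so the totals are not the share of calls kept. Alternatives in which a gene could not be tested are left out. The subsets by Spp1 and, for Ex against Sed, by neutrophil genes are included. With 2 libraries a group, one of them with 36 gated cells, differences of low genes were often not detectable.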

Other observations

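Genes of engulfment and iron storage were also higher in the gated cells than in the other C1q cells. Of 21 tested efferocytosis and scavenger receptor genes 5 were higher and 1 lower, with a median log2 difference of 0.25, against -0.01 over all genes. Among all genes tested, 1.56% were higher and 2.2% lower. The list summed to 4269 and 3916 CPM in gated Ex cells and 5221 and 4381 CPM in gated Sed cells. In the Kupffer gate it summed to 5909 and 6477 CPM in Ex and 4851 and 6517 CPM in Sed. Mertk, a receptor for apoptotic cells, stood at 52.4 and 46.7 CPM in gated Ex cells and 83.5 and 64.1 CPM in gated Sed cells, against 22.6 and 31.2 CPM in other Ex cells and 57.3 and 27.0 CPM in other Sed cells (0.90 ± 0.19, edgeR adjusted p = 0.00905; not passed without the first Ex or the second Sed library). Lrp1, an endocytic receptor for apolipoprotein E, was higher by 0.75 ± 0.12 (edgeR adjusted p = 0.00112). The ferritin chains Ftl1 and Fth1 were higher by 0.53 ± 0.08 and 0.36 ± 0.08 (edgeR adjusted p = 0.000297 and 0.0114), and 3 of 15 iron and heme genes were higher and 1, Lcn2, lower. The scavenger receptor Marco was the single lower gene of the first list (-2.29 ± 0.48, edgeR adjusted p = 0.00879).

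Of 24 matrix and growth factor genes 6 were higher and 2 lower, with a median of 0.62. Among all genes tested, 1.56% were higher and 2.2% lower. The sheddase Adam8 stood at 62.2 and 72.7 CPM in gated Ex cells and 339 and 120 CPM in gated Sed cells, against 30.4 and 27.0 CPM in other Ex cells and 103 and 58.2 CPM in other Sed cells (1.26 ± 0.16, edgeR adjusted p = 0.000105). Coagulation factor XIII, F13a1, which crosslinks fibrin, was higher by 0.96 ± 0.14 (edgeR adjusted p = 0.000227). The lower pair was Mmp8, a collagenase of neutrophils, and Sparc, a matrix protein of stromal cells and endothelium.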
